A study of Mus musculus with 46 samples.

Results

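The comparison set hearts of adult mice with both Lmna alleles floxed against hearts with 1 floxed allele, in animals with an intact cGas gene, by 3' tag RNA sequencing (QuantSeq). The groups were taken from the genotype labels: 6 libraries of Lmna F/F; cGas +/+ and 6 of Lmna F/+; cGas +/+, 12 of the 46 libraries of the series. All 12 carried Myh6MCM Tg/0, a tamoxifen-activated Cre driven by a cardiomyocyte promoter, and all animals received tamoxifen at an age of 6 to 8 weeks, as 100 µL of a 4 mg/mL solution on each of 4 days. Hearts were taken 2 weeks later and perfused with 100 mM KCl. Cre in this design acts in cardiomyocytes, so the other cells of the heart keep their Lmna alleles, and the F/+ controls carry Cre, tamoxifen and 1 allele open to deletion. The other libraries of the series are a cGas null/null arm in the same kit, with 4 F/F and 4 F/+ hearts, and a time course in another kit (NEBNext) that set F/F against Lmna +/+. The study asked whether rupture of the nuclear envelope after loss of lamin A/C acts through the cytosolic DNA sensor cGAS.

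Lamins A and C, the products of Lmna, form the meshwork under the inner nuclear membrane that gives the nucleus its stiffness, and their loss from heart muscle leads to dilated cardiomyopathy. DNA that reaches the cytosol can be bound by cGAS, which makes a cyclic dinucleotide that activates STING and induces interferon-stimulated genes. Injured heart muscle also releases chemokines that recruit monocytes, and it stimulates fibroblasts to lay down matrix.

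Each library held 22099181 to 33993289 counts, and 47.9% to 56.3% of the F/F counts and 45.9% to 54.8% of the F/+ counts lay on mitochondrially encoded genes. Between 20547 and 21575 genes were detected in F/F libraries and between 19434 and 20651 in F/+ libraries (exact permutation test, two-sided, p = 0.00433). No 2 of the 30 pairs of replicates were identical, and the sex-specific genes matched the labelled sex in 12 of 12 libraries. The labels do not say that the libraries came from separate mice, so each p-value measures the spread between libraries. Lmna itself is a weak check of the labels, because a 3' tag can lie outside the deleted part of the gene. Its level was 16.6 to 28.6 normalised CPM (counts scaled by library total and TMM factor) in F/F, with a median of 19.3, and 19.2 to 26 in F/+, with a median of 20.9. The groups overlapped, and the difference was -0.13 ± 0.16 on the log2 scale (SE, n = 6 and 6; edgeR quasi-likelihood test, adjusted p = 0.700). The difference of the means was -1.52 normalised CPM, and 1.06 in the deposited CPM, which carry no TMM factor (exact permutation test, two-sided, p = 0.504 and 0.816).

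The libraries also differed in markers of atrial heart muscle, within both genotypes. In 5 libraries, F/F libraries 3, 5 and 6 and F/+ libraries 4 and 6, the atrial calcium pump regulator Sln lay between 92.8 and 357 normalised CPM. In the other 7, 3 F/F and 4 F/+, it lay between 0.325 and 1.03. The atrial myosin light chains followed the same split, Myl7 at 77.4 to 236 against 0.639 to 1.62 and Myl4 at 112 to 461 against 1.51 to 2.99. Bmp10, a growth factor of atrial muscle, reached 20.5 to 42.3 in the 5 libraries and at most 0.149 in the 7. No library lay between the classes for any of these genes. Adipoq, a fat cell hormone, was also higher in the 5 libraries, at 1.5 to 5.21 against 0 to 0.965 normalised CPM. Over the 9 atrial markers the summed level ran from 395 to 2744 normalised CPM in F/F and from 347 to 2613 in F/+, with 0 of 9 called between the genotypes by edgeR or DESeq2 and 0 at an unadjusted p under 0.05. The median log2 fold change of these markers was 1.21, but -0.37 and -0.11 within the libraries low and high in them. Over the 5 adipocyte markers tested the summed level ran from 0.595 to 22.5 normalised CPM in F/F and from 0.473 to 9.16 in F/+. Because the classes are spread over both genotypes, values within each class are given below beside several results.

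**Figure D1:**
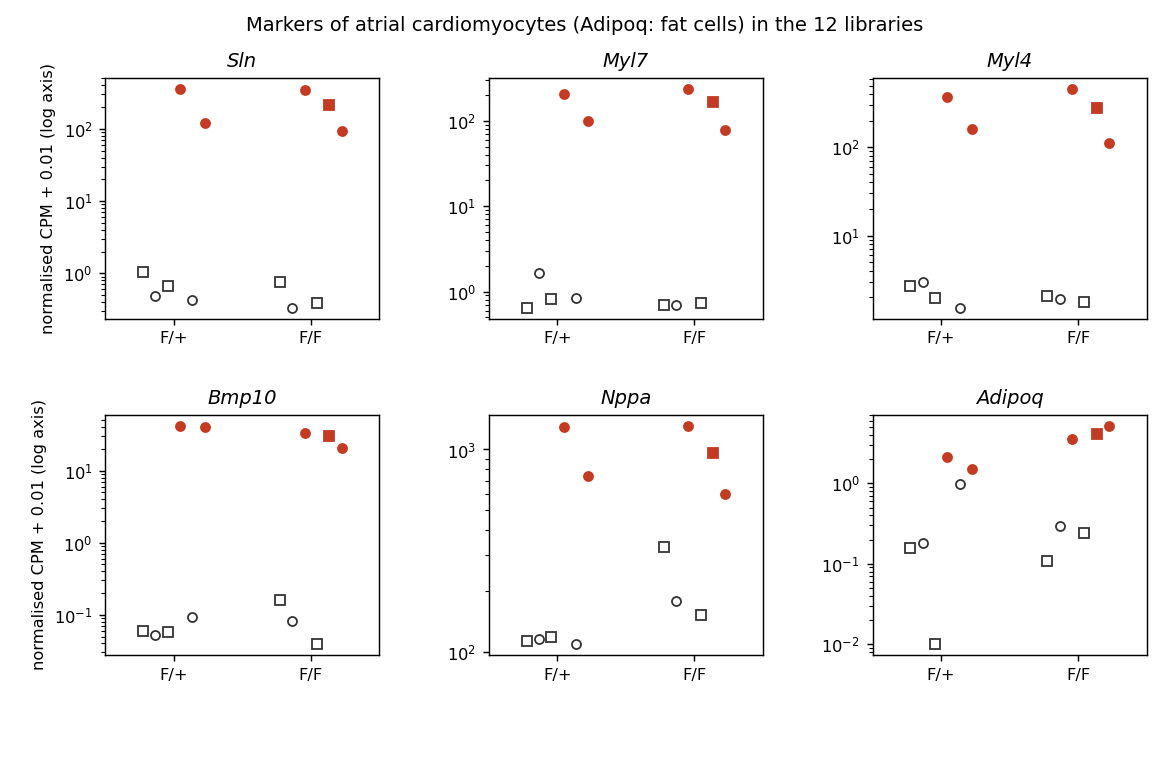
Normalised CPM + 0.01 (log axis) of 5 genes of atrial heart muscle and the fat cell gene Adipoq, 1 point per library, by Lmna genotype. Circles are female and squares male libraries, and filled red symbols are the 5 libraries with Sln above 10 normalised CPM. The 3 F/F and 2 F/+ libraries in red stand apart from the other 7 in Sln, Myl7, Myl4 and Bmp10.

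Of 14812 genes tested, 686 passed an adjusted p of 0.05 in the edgeR quasi-likelihood test (4.63%). Most rose in F/F hearts: 554 were higher (3.74%) and 132 lower (0.891%). The counts in the gene lists below are to be read beside these 2 shares. The median log2 fold change was 1.12 for the higher genes and -0.681 for the lower ones, and 327 genes were called at least 2-fold higher (2.21%) and 18 at least 2-fold lower (0.122%). The median over all genes tested was -0.0114. Without correction 2795 genes had a p under 0.05, where 741 would be expected by chance. For 455 genes (3.07%) the 6 F/F values did not overlap the 6 F/+ values, and 344 of these were among the 686.

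The call count depended on single libraries. It fell to 190 without F/+ library 1 and to 201 without F/+ library 3, the only male F/+ libraries with cGas, and to 347 without F/F library 5, 387 without F/F library 1 and 427 without F/F library 2. It rose to 1169 without F/F library 4. Among the 7 libraries low in atrial markers 695 of 13588 genes were called (5.11%), and among the 5 high in them 3 (0.0221%), with 3 F/F against 2 F/+ libraries. The 646 called genes tested in that fit kept their direction in 646 cases in the first class and in 646 in the second. They were called on these same libraries, so that count is a description.

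Among called genes with a mean of at least 5 normalised CPM and no overlap between the groups, the 12 of highest fold were Spp1, Serpina3n, Timp1, Ccl2, Ccl7, Ccl12, Lgals3, Clec4n, Nmrk2, Ccr2, Socs3 and Atf3. Spp1, or osteopontin, a matrix-bound cytokine made by macrophages, lay at 1.93, 5.75 and 26.3 normalised CPM in F/F (lowest, median and highest) and at 0.126, 0.193 and 0.857 in F/+. Every F/F library was above every F/+ library, as the choice of all 12 genes required, and the F/F libraries 1 and 5 were highest. The log2 fold change was 4.59 ± 0.55 (SE, n = 6 and 6; edgeR quasi-likelihood test, adjusted p = 6.09e-05). The F/+ mean of Spp1 was 0.291 normalised CPM, so this fold rests on few control counts. Of the 12 genes only Lgals3 had an F/+ mean above 5, so the others met that floor through F/F. Serpina3n, an acute phase protease inhibitor, lay at 12.8, 16.8 and 69.5 normalised CPM against 1.01, 1.35 and 3. Its groups did not overlap either, and its log2 fold change was 3.64 ± 0.49 (adjusted p = 0.000296 by edgeR). Timp1, an inhibitor of matrix metalloproteinases, lay at 24.4, 34.6 and 134 normalised CPM against 1.28, 2.60 and 10.1, with F/+ library 6 the highest control. Its log2 fold change was 3.62 ± 0.57 (adjusted p = 0.000995 by edgeR), 4.94 within the libraries low in atrial markers and 3.29 within those high in them.

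The sequence upstream of the leading genes is shown because they rose together. Of the 12 genes of highest fold, 9 had an entry in the RefSeq promoter table (build GRCm38.p6, not the build of the counts). The 250 bases before the annotated start are printed 5' to 3' for the 4 of highest fold with an entry, all on the plus strand: Spp1, which has 2 entries, at chr5:104434861-104435110, Serpina3n at chr12:104406458-104406707, Timp1 at chrX:20869916-20870165 and Ccl12 at chr11:82101595-82101844. Capitals mark matches on either strand to TGANTCA (AP-1), GGAATG (TEAD), TGATGCAA (ATF4), the core of the interferon response element (ISRE) or the MEF2 element.
Spp1: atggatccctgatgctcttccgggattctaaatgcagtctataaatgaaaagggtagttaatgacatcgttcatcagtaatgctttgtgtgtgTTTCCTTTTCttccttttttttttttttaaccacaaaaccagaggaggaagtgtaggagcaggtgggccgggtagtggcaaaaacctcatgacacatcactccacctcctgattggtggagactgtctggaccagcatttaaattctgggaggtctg
Serpina3n: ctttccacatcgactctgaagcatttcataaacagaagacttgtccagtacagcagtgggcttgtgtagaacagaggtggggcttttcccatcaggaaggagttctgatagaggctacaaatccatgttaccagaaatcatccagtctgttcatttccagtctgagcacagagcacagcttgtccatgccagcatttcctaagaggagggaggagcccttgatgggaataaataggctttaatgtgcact
Timp1: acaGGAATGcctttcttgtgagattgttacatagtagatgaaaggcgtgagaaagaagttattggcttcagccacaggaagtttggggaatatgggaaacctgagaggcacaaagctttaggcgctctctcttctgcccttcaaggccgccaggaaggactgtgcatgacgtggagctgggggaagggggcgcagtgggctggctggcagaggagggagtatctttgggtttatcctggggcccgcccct
Ccl12: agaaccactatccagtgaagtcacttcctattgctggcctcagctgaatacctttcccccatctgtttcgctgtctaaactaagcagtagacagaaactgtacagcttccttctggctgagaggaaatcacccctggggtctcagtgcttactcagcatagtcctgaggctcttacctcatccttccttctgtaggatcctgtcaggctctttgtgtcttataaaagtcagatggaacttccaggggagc
The Spp1 stretch held 1 match, to the interferon response element on the opposite strand, 157 bases before the start, and the Timp1 stretch 1 match to the TEAD letters, 247 bases before it. Neither Serpina3n nor Ccl12 held any of the 5 motifs in this window. The AP-1 letters were present in 10.2% of 510 promoters of genes called higher and in 3.10% of 129 promoters of genes called lower, where 4.71% of 13635 promoters of tested genes and 6.75% of all 32851 held them. The interferon response letters were present in 4.12%, 0.775%, 2.67% and 2.98% of the same sets, and the ATF4 letters in 1.57%, 0%, 0.506% and 0.791%. The TEAD letters were found in 12.5% of promoters of genes called higher, 20.2% of those called lower, 10.9% of those tested and 12.6% of all. The MEF2 letters were in 0.103% of all promoters and in none of the promoters of called genes. These shares were not tested, and a match is no evidence of binding.

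Chemokines that attract monocytes rose together. Ccl2, the main ligand of the monocyte receptor Ccr2, lay at 13.5, 25.6 and 52.0 normalised CPM in F/F and at 1.42, 2.17 and 3.03 in F/+. The lowest F/F library was above the highest control, as its place among the 12 of highest fold required. The log2 fold change was 3.40 ± 0.35 (edgeR quasi-likelihood test, adjusted p = 1.73e-05). Ccl7 and Ccl12, which lie beside Ccl2 and bind the same receptor, showed log2 fold changes of 2.87 ± 0.33 and 2.52 ± 0.45. The sequences of the 3 ligands are related, and how reads that fit several were counted is not stated by the labels. The receptor gene Ccr2 rose from a median of 2.73 to 12.4 normalised CPM, a log2 fold change of 2.20 ± 0.42. In the list of 26 chemokines and cytokines tested, 14 were called higher and 0 lower, with a median log2 fold change of 1.63. Ccl9 rose by 1.72 ± 0.25 and Il1rn, a secreted blocker of interleukin 1, by 3.40 ± 0.50 on the log2 scale. Il1rn was low in the controls, at an F/+ median of 0.391 normalised CPM. The list's count was 8 without F/+ library 1 and 9 without F/+ library 3, and its median was 2.33 in the libraries low in atrial markers and 1.30 in those high in them.

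**Figure D2:**
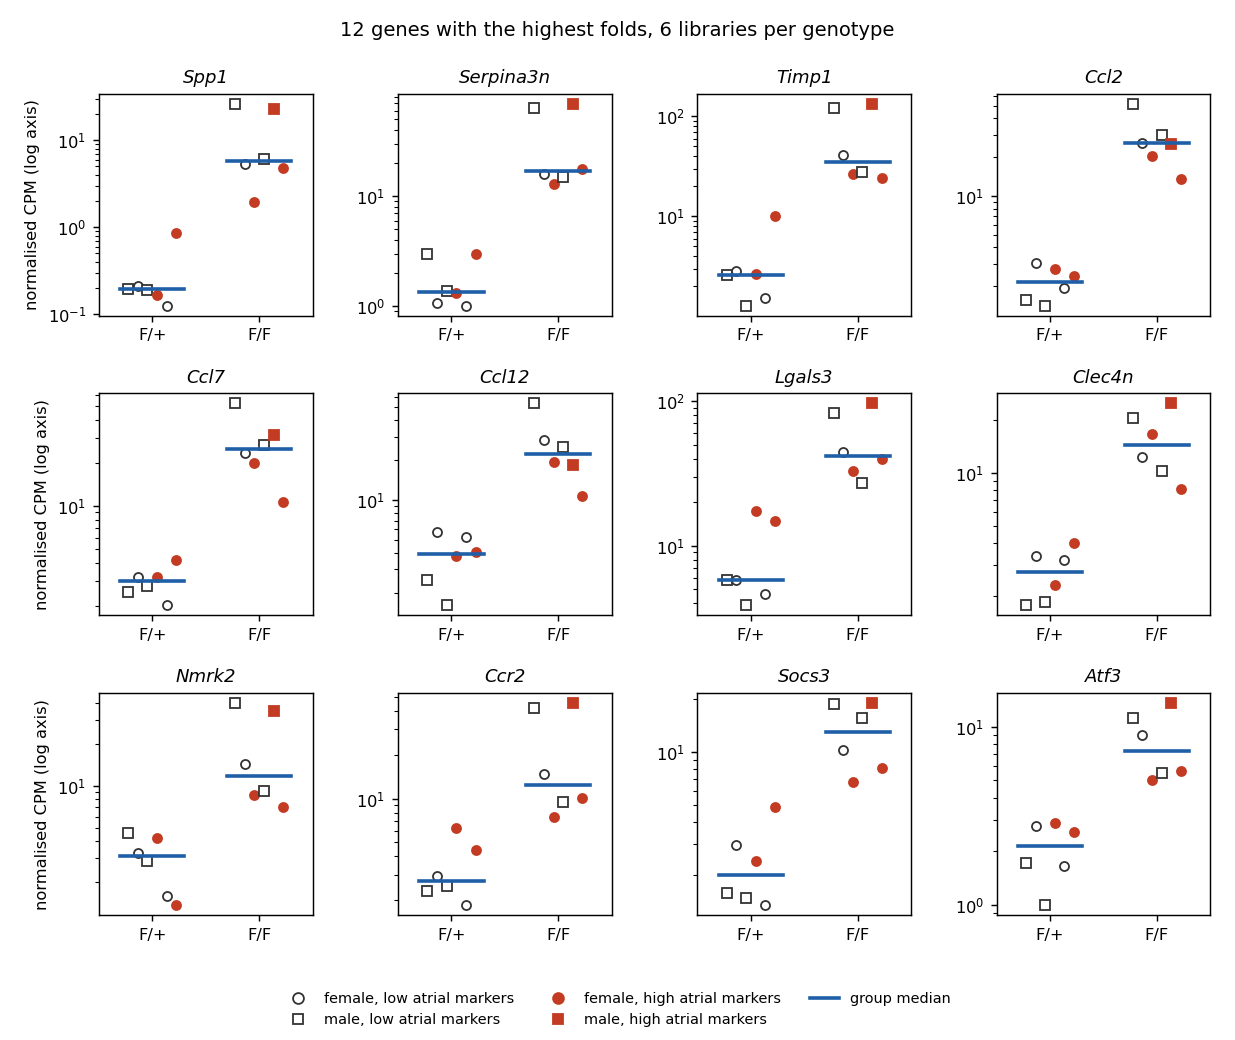
Normalised CPM (log axis) of the 12 genes of highest fold, 1 point per library, with the median of each genotype as a line. Circles are female and squares male libraries, and red symbols the 5 libraries high in atrial markers. For each gene the lowest F/F library lies above the highest F/+ library, as the choice of these genes required.

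Markers of macrophages and monocytes were the list with the largest share of called genes: 23 of 28 rose and 0 fell, with a median log2 fold change of 1.09. Over all genes 3.74% were called higher. For 18 of the markers every F/F library lay above every F/+ library, as did 2.39% of all genes tested. Their summed level was 897 to 2152 normalised CPM in F/F and 523 to 704 in F/+, with no overlap. Lgals3, or galectin 3, lay at 27.1, 42.0 and 96.1 normalised CPM in F/F and 3.88, 5.78 and 17.3 in F/+ (log2 fold change 2.49 ± 0.40, edgeR adjusted p = 0.00133), with 3.35 in the libraries low in atrial markers and 1.81 in those high in them. The complement gene C1qa, made by resident macrophages, rose by 1.03 ± 0.18 on the log2 scale, and the lipopolysaccharide co-receptor Cd14 by 0.94 ± 0.18. Gpnmb, a glycoprotein of lipid-laden macrophages, was low throughout, with medians of 2.09 and 0.271 normalised CPM. Outside the list, the lectin receptor Clec4n lay at 8.15, 14.4 and 24.9 normalised CPM against 1.77, 2.75 and 3.98, a log2 fold change of 2.40 ± 0.28. In RNA of bulk heart tissue, more cells of a type and more RNA per cell cannot be told apart. The list's median was 1.21 in the libraries low in atrial markers and 1.19 in those high in them. The count fell to 15 without F/+ library 1 or without F/+ library 3, and to 9 without F/F libraries 1 and 5 together.

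Markers of other blood cells gave few calls. Among neutrophil markers 1 of 6 tested rose, Lcn2, which injured heart muscle can also make, at medians of 3.53 and 0.866 normalised CPM. Of 7 T and NK cell markers tested, only Il7r was called, at medians of 1.15 and 0.270 normalised CPM, and it lost the call in 3 of the 12 fits that left out 1 library. Of 4 B cell markers tested 0 were called by edgeR and 0 by DESeq2, with 0 at an unadjusted p under 0.05 and a median of -0.13. The erythroid markers, which report blood left in the tissue, had a median of 0.02, with 0 of 6 called by edgeR or DESeq2 and 0 at an unadjusted p under 0.05. Below the filter on low counts lay 5 of 11 neutrophil, 9 of 16 T and NK cell and 4 of 8 B cell markers, so these lists say little.

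Acute phase and complement genes were called higher for 4 of 14, with 0 lower and a median of 0.74. Besides Serpina3n these were C5ar1, the receptor for the complement fragment C5a, at 1.14 ± 0.29 on the log2 scale, C3ar1, the receptor for C3a, at 0.86 ± 0.20, and Cp, or ceruloplasmin, at 0.70 ± 0.16. The count was 1 without F/+ library 1 or F/+ library 3. Socs3, a feedback inhibitor of gp130 cytokine signalling, lay at 6.70, 12.9 and 18.9 normalised CPM in F/F and at 1.34, 1.98 and 4.84 in F/+. No library of one group reached the other, as its place among the 12 of highest fold required. The log2 fold change was 2.12 ± 0.35 (edgeR adjusted p = 0.00136).

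Some genes of the injured matrix rose. Of 29 matricellular and TGF-beta genes, 11 were called higher and 0 lower, with a median log2 fold change of 0.77. Tnc, or tenascin C, lay at 2.61, 4.37 and 14.9 normalised CPM in F/F and 0.142, 0.252 and 1.80 in F/+. Its log2 fold change was 3.23 ± 0.59 (edgeR adjusted p = 0.00315) and rests on few counts in the controls. Gdf15, a stress-induced member of the TGF-beta family, lay at 2.83, 3.25 and 7.39 normalised CPM against 0.336, 0.694 and 1.28. Its groups were apart, with a log2 fold change of 2.12 ± 0.34. The matricellular count was 5 without F/+ library 1, 6 without F/+ library 3 and 4 without F/F libraries 1 and 5.

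Among 35 genes of collagens and structural matrix 5 were called higher and 0 lower, with a median of 0.44, and the count was 3 without F/+ library 1 or F/+ library 3. Col8a1, a short-chain collagen, lay at 31.6, 46.1 and 90.5 normalised CPM against 7.89, 17.1 and 21.5 and rose by 1.55 ± 0.30 on the log2 scale. The proteoglycan Vcan rose by 1.42 ± 0.25, the microfibril protein Mfap5 by 1.10 ± 0.23 and the small proteoglycan Lum by 0.68 ± 0.18, and Lum lost the call in 6 of the 12 fits that left out 1 library. Lum stood at 0.80 in the libraries low in atrial markers and 0.22 in those high in them. The fibrillar collagens Col1a1 and Col3a1 were not called. Col1a1 lay at 34.7, 62.9 and 130 normalised CPM in F/F and 24.2, 38.5 and 137 in F/+ (log2 fold change 0.44 ± 0.40, edgeR adjusted p = 0.597), and Col3a1 at 156, 312 and 574 against 101, 120 and 438 (0.87 ± 0.39, adjusted p = 0.226). In both genes F/+ library 6, which is high in atrial markers, was the highest control, above all F/F libraries for Col1a1 and inside their range for Col3a1. Within the libraries low in atrial markers the log2 fold change of Col3a1 was 1.49, and within those high in them 0.29. The part of the atrial markers in these values was not tested.

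Of 21 metalloproteinases and their inhibitors 5 were called higher and 0 lower. Their count was 2 without F/+ library 1 or F/+ library 3. Beside Timp1 these included the macrophage elastase Mmp12, at medians of 2.48 and 0.244 normalised CPM and without overlap, Mmp3, at medians of 3.85 and 0.965, and Mmp19, at medians of 2.71 and 1.18. Mmp19 lost its call in 8 of the 12 fits that left out 1 library. One crosslinking and processing gene of 15 was called, where 3.74% of all genes were called higher. It was the procollagen enhancer Pcolce, at 0.76 ± 0.20 on the log2 scale, and it lost the call in 7 of the 12 fits that left out 1 library. Of 11 markers of activated fibroblasts 3 were called, Tnc from the matricellular list among them, with a median of 0.77. The count was 1 without F/+ library 1 or F/+ library 3. Postn, or periostin, lay at 23.2, 44.5 and 104 normalised CPM in F/F and 6.05, 8.34 and 38.4 in F/+, with F/+ library 6 inside the F/F range. Its log2 fold change was 1.87 ± 0.44 (edgeR adjusted p = 0.0172), 2.98 within the libraries low in atrial markers and 0.80 within those high in them, and its call was lost without F/+ library 1 and without F/+ library 3. Thbs4, or thrombospondin 4, rose by 0.99 ± 0.22 on the log2 scale. The median of the 15 resting fibroblast markers was 0.08, with 0 calls in either direction by edgeR or DESeq2 and 3 at an unadjusted p under 0.05. At the highest level among them stood Gsn, at medians of 350 and 386 normalised CPM, and Ly6a, at 169 and 112.

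**Figure D3:**
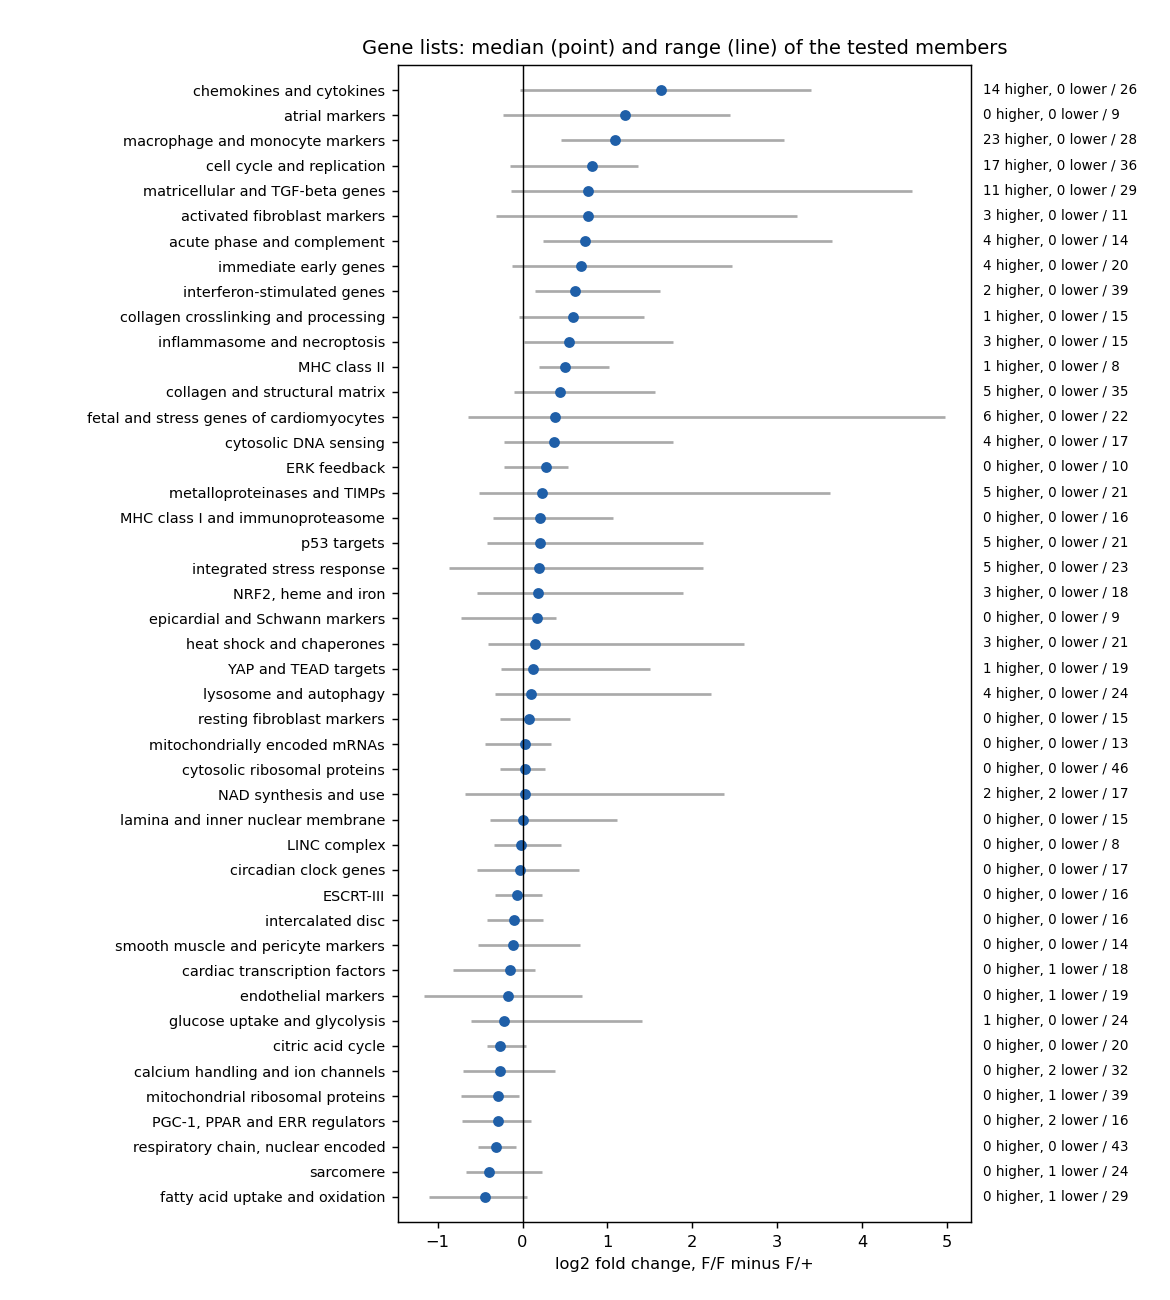
Log2 fold change, F/F minus F/+, for the 45 gene lists with at least 8 members tested. Points are medians and lines run from the lowest to the highest member, and at the right stand the members called higher and lower by edgeR of those tested. Chemokines lie at the top at 1.63, followed by atrial markers at 1.21, with 0 of 9 called, and macrophage markers at 1.09, and fatty acid oxidation and sarcomere genes at the bottom, at -0.45 and -0.40.

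Cell cycle and replication genes were called higher for 17 of 36 and lower for 0, with 35 of 36 above 0 and a median log2 fold change of 0.81. Mcm6, a subunit of the replicative helicase, lay at 5.02, 6.30 and 7.44 normalised CPM in F/F and 2.60, 3.34 and 4.91 in F/+. These groups did not overlap (log2 fold change 0.83 ± 0.17, edgeR adjusted p = 0.00633). The mitotic kinase Cdk1 rose by 0.99 ± 0.22, the spindle protein Prc1 by 0.73 ± 0.16 and Top2a, a topoisomerase of dividing cells, by 0.74 ± 0.17 on the log2 scale. This list depended on single libraries: 2 of 36 were called without F/+ library 1, 2 without F/+ library 3 and 0 without F/F libraries 1 and 5 together. Which cells of the heart carried these transcripts was not tested.

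The list for cytosolic DNA sensing gave 4 calls of 17, all higher, with a median of 0.37. Cgas lay at 1.97, 2.87 and 3.79 normalised CPM in F/F and 0.851, 1.14 and 2.39 in F/+, and the ranges overlapped. Its log2 fold change was 0.91 ± 0.29 (edgeR adjusted p = 0.0727), 1.60 within the libraries low in atrial markers and 0.20 within those high in them. The difference of the means was 1.43 normalised CPM, and 1.65 in the deposited CPM (exact permutation test, two-sided, p = 0.013 and 0.00866). Those 2 p-values are not adjusted over genes, and that test has no term for sex. Cgas was called higher in 10 of 28 alternatives, DESeq2 and limma-voom among them. Sting1, the adaptor downstream of cGAS, lay at 3.83, 4.92 and 7.65 normalised CPM against 2.22, 2.54 and 4.13. It rose by 0.90 ± 0.18 on the log2 scale (edgeR adjusted p = 0.00511), with F/+ library 1 inside the F/F range. Zbp1, a sensor of Z-form nucleic acid, rose by 1.77 ± 0.40, Ifi204, a DNA-binding protein of the same family as IFI16, by 1.24 ± 0.27, and Enpp1, which degrades the cyclic dinucleotide made by cGAS, by 0.80 ± 0.17. The count was 1 without F/+ library 1 and 0 without F/F libraries 1 and 5.

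For interferon-stimulated genes the share called lay near that of all genes. All 39 tested had a log2 fold change above 0, with a median of 0.62 beside -0.0114 over all genes, while 2 were called higher and 0 lower, where 3.74% of all genes were called higher. The 2 were Ifi27l2a, at 91.3, 225 and 360 normalised CPM against 62.3, 84.8 and 117 (log2 fold change 1.34 ± 0.33, edgeR adjusted p = 0.0207), and Lgals3bp, at 12.2, 24.7 and 34.2 against 11.7, 13.6 and 16.1. Both overlapped between the groups, and Lgals3bp lost its call in 9 of the 12 fits that left out 1 library. Ifit1, a binder of foreign RNA ends, lay at 9.63, 20.2 and 36.1 normalised CPM against 4.25, 8.58 and 18.5, with a log2 fold change of 1.22 ± 0.36 (adjusted p = 0.0530 by edgeR). It was called in 11 of 28 alternatives, DESeq2 and limma-voom among them. Isg15, a ubiquitin-like modifier, lay at 11.7, 23 and 33.3 against 8.61, 10.6 and 22.4, with 0.75 ± 0.30 (adjusted p = 0.172 by edgeR). Over the alternatives the list had 0 to 19 calls, all higher: 19 without a filter on low counts, 9 by DESeq2, 2 by limma-voom, 14 without F/F library 4, 12 without F/+ libraries 4 and 6, and 0 in several, among them those without F/+ library 1 or F/+ library 3. Of 16 genes of MHC class I and the immunoproteasome 0 were called by edgeR or DESeq2 and 6 had an unadjusted p under 0.05, with B2m at medians of 614 and 495 normalised CPM and H2-D1 at 127 and 95.1. Of 8 MHC class II genes 1 was called, H2-DMb1, at 0.86 ± 0.24, and it lost the call in 8 of the 12 fits that left out 1 library. Inflammasome and necroptosis genes gave 3 calls of 15, all higher, namely Zbp1, Casp4, the caspase that senses cytosolic lipopolysaccharide, at 1.10 ± 0.28, and the TNF receptor Tnfrsf1a at 0.76 ± 0.19. That count was 0 without F/+ library 1 or F/+ library 3, and of the 12 fits that left out 1 library Casp4 lost its call in 7 and Tnfrsf1a in 5.

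The genes of the nuclear envelope itself did not pass the test in either direction. The list for the LINC complex, which ties the nucleus to the cytoskeleton, also held kinesin genes. Of 15 genes of the lamina and inner nuclear membrane, 8 of that LINC list and 16 of ESCRT-III, which reseals membranes, 0 were called by edgeR. Their medians were 0.01, -0.02 and -0.07. At an unadjusted p under 0.05 there were 3, 1 and 2 of them, and DESeq2 called 1, 0 and 0. Banf1, the chromatin bridging factor that gathers at ruptures, lay at medians of 49.8 and 49.4 normalised CPM and Tor1aip1, or LAP1, at 25.4 and 29.1. The kinesin Kif5b lay at 213 and 172, and the ESCRT-III gene Chmp4b at 96.4 and 92.4.

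Stress genes of cardiomyocytes were called higher for 6 of 22 and lower for 0, with a median of 0.39, and the higher count was 3 without F/+ library 1 or F/+ library 3. Ankrd1, a titin-binding stress protein of the sarcomere, was the most abundant of them, at 1853, 3483 and 9000 normalised CPM in F/F and 708, 1169 and 2332 in F/+. Its ranges overlapped, and it rose by 1.5 ± 0.27 on the log2 scale (edgeR adjusted p = 0.00274). Sprr1a, a cornified envelope protein induced in stressed heart muscle, lay at 0.241, 0.525 and 3.27 normalised CPM in F/F and at 0 to 0.129 in F/+ (adjusted p = 0.00269 by edgeR). No fold is given for Sprr1a, since the median of the controls was 0. The gene passed the filter on low counts only through F/F libraries, so its p-value and call carry the same limit. In the fits of the 12 libraries with cGas it fell below that filter. Fhl1, a LIM protein of the stretch response, rose by 0.92 ± 0.20, and Atf3, a stress-induced transcription factor, by 1.84 ± 0.34.

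Of the classical fetal and adult markers, edgeR called neither Nppa, Nppb, Acta1, Myh6 nor Myh7. Nppa, the atrial natriuretic peptide, lay at 151, 468 and 1312 normalised CPM in F/F and 109, 117 and 1296 in F/+ (log2 fold change 1.13 ± 0.69, edgeR adjusted p = 0.398). Its high values were those of the 5 libraries high in atrial markers, at 605 to 1312 against 109 to 330 in the other 7. Among those 7 the 3 F/F libraries lay at 151, 178 and 330 and the 4 F/+ libraries between 109 and 118, with a log2 fold change of 0.95 in that class and -0.08 in the other. Nppb, the B-type peptide, lay at medians of 109 and 75.3 normalised CPM (0.74 ± 0.38, adjusted p = 0.297 by edgeR), and skeletal actin Acta1 at 60.5 and 50.9 (0.10 ± 0.37, adjusted p = 0.916). Myh6, the adult heavy chain, lay at 1283 and 2103 (-0.59 ± 0.18, adjusted p = 0.0685) and Myh7, the fetal one, at 93.5 and 132 (-0.64 ± 0.19, adjusted p = 0.0541). DESeq2 called Myh6 and Myh7 lower, and among 28 alternatives Myh6 was called in 4 and Myh7 in 10, always lower. The Myh6MCM transgene carries the Myh6 promoter, and reads from it cannot be told apart from endogenous Myh6 where they share sequence.

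Of the genes that fell, Ttll1, a tubulin polyglutamylase, showed the lowest fold among those named by fold, at 12.2, 23.5 and 29.4 normalised CPM in F/F and 38.6, 54.1 and 59.1 in F/+. The groups were apart, and the log2 fold change was -1.20 ± 0.26 (edgeR quasi-likelihood test, adjusted p = 0.0112). Esr1 lay at 17.3, 41.7 and 57.6 normalised CPM against 68.2, 78.0 and 90.6, a log2 fold change of -0.98 ± 0.24. MCM contains a mutated ligand-binding domain of the oestrogen receptor, so reads of the transgene and of endogenous Esr1 cannot be told apart, and the labels do not name the organism of that sequence. Hopx, a homeodomain cofactor of cardiomyocytes, lay at 51.8, 71.6 and 103 normalised CPM against 114, 136 and 151, with an estimated log2 fold change of -0.82 ± 0.19 (edgeR adjusted p = 0.0137). It was the only call among 18 cardiac transcription factors.

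The other 9 of the 12 lowest folds were Fam81a at -0.95, Spata33 at -0.80, Pcp4l1 at -0.78, Osbpl3 at -0.77, Cmtm8 at -0.75, Cisd3 at -0.73, Gdpd1 at -0.71, Gstm7 at -0.70 and Rxrg at -0.68 on the log2 scale. They include an oxysterol-binding protein, Osbpl3, an iron-sulfur protein of mitochondria, Cisd3, and the retinoid receptor Rxrg. For all 12 the highest F/F library lay below the lowest F/+ library, since the choice required groups that do not overlap. All 12 genes of highest fold kept their call in each of the 12 fits that left out 1 library, whereas 2 of the 12 of lowest fold did, Fam81a and Osbpl3. The other 10 lost it without F/+ library 1, and 8 also without F/+ library 3.

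**Figure D4:**
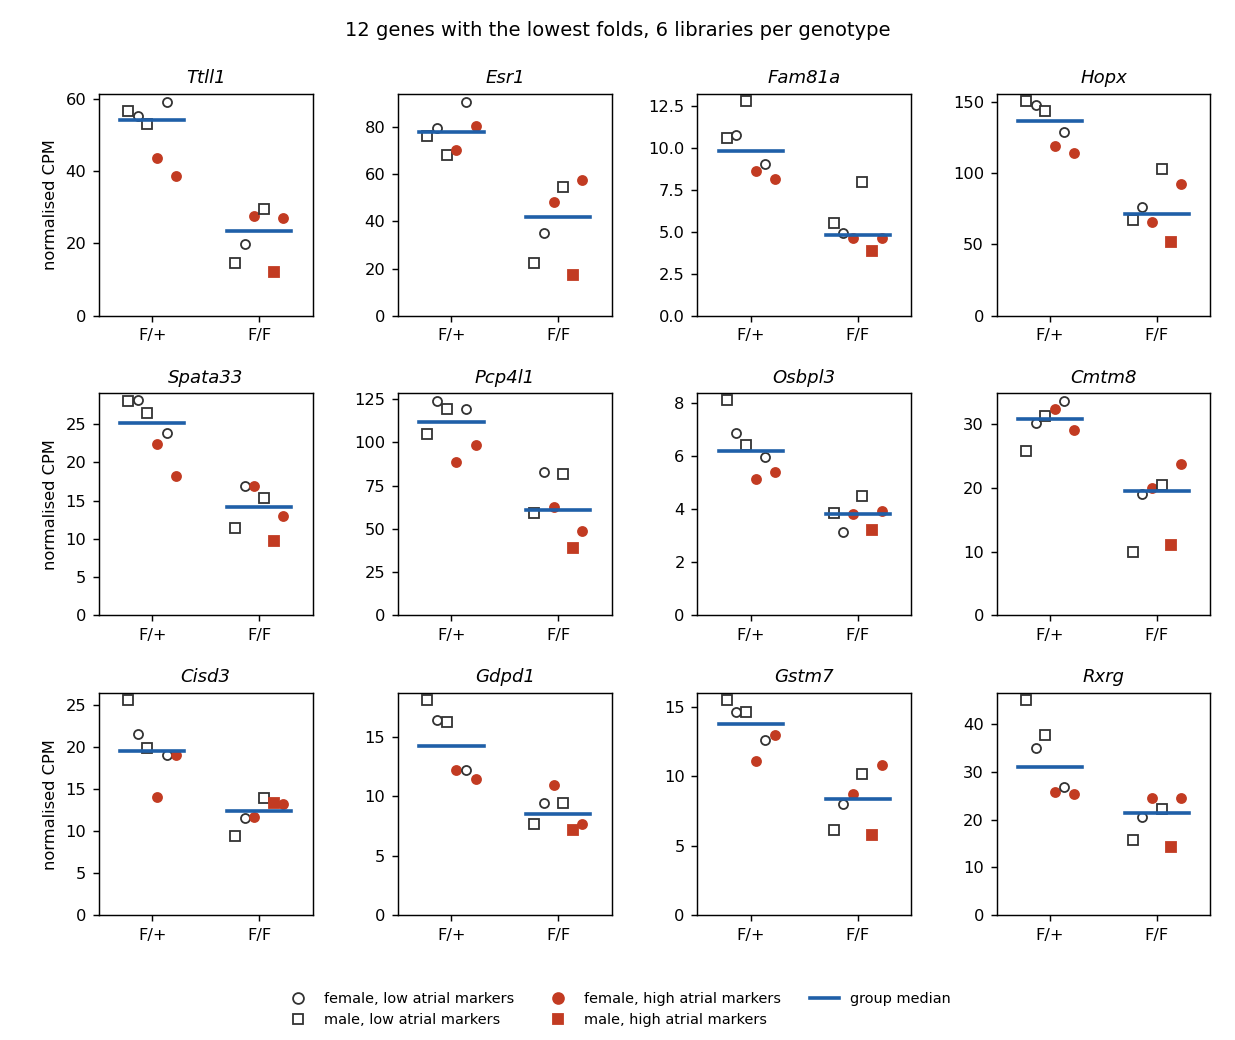
Normalised CPM (axes start at 0) of the 12 genes of lowest fold, 1 point per library, with the median of each genotype as a line and symbols for sex and atrial markers as above. For Ttll1 the 6 F/F libraries lie between 12.2 and 29.4 and the 6 F/+ libraries between 38.6 and 59.1.

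Over all genes tested 0.891% were called lower, and the lists of contraction and energy supply are set beside that share. In the sarcomere list 1 of 24 fell, the ubiquitin ligase Trim63, at 121, 122 and 156 normalised CPM against 147, 197 and 224 (log2 fold change -0.53 ± 0.15, edgeR adjusted p = 0.0439), and the list's median was -0.40. Of 32 genes of calcium handling and ion channels 2 fell, Kcnj11, a subunit of the ATP-sensitive potassium channel, by 0.60 ± 0.16 and Kcnip2, a subunit of the transient outward channel, by 0.70 ± 0.19. Of the 43 nuclear-encoded respiratory chain genes 0 were called by edgeR and 5 by DESeq2, with 12 at an unadjusted p under 0.05. All 43 lay below 0, with a median of -0.32. Cox6a2, the muscle subunit of complex IV, lay at medians of 3150 and 4889 normalised CPM. All 39 mitochondrial ribosomal proteins lay below 0 too, with a median of -0.29 and 1 call, Mrps35 at -0.62 ± 0.18. The 13 mitochondrially encoded mRNAs had a median of 0.03, and so had the 46 cytosolic ribosomal proteins. Both lists had 0 calls by edgeR, 0 by DESeq2 and 0 genes at an unadjusted p under 0.05. The calls of Trim63 and Mrps35 were lost in 9 of the 12 fits that left out 1 library, that of Kcnip2 in 8 and that of Kcnj11 in 7. Without F/+ library 1 or F/+ library 3 the sarcomere, channel and mitochondrial ribosomal lists each had 0 calls.

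Fatty acid uptake and oxidation gave 1 call lower of 29 and the lowest median of these lists, -0.45. The call was Acot1, a thioesterase of fatty acyl-CoA whose near-identical paralogs may share its counts, at medians of 2.79 and 4.98 normalised CPM, and it was lost in 7 of the 12 fits that left out 1 library. The citric acid cycle gave 0 of 20 by edgeR and 1 by DESeq2, with 6 at an unadjusted p under 0.05 and a median of -0.26, where Idh2 lay at 289, 437 and 480 normalised CPM against 468, 553 and 614 (log2 fold change -0.40 ± 0.13, edgeR adjusted p = 0.0927). Among 16 regulators of these genes 2 fell, Rxrg and Perm1, a muscle cofactor of mitochondrial genes, by 0.72 ± 0.16, and 0 did without F/+ library 1 or F/+ library 3. One glycolytic gene of 24 was called, where 3.74% of all genes were called higher. It was the lactate transporter Slc16a3, which rose by 1.40 ± 0.33 from a median of 0.644 normalised CPM. Its call was lost in 2 of the 12 fits that left out 1 library. The NAD list moved in both directions. Nmrk2, the nicotinamide riboside kinase of muscle, lay at 7.03, 11.8 and 39.8 normalised CPM against 1.37, 3.08 and 4.57 (log2 fold change 2.37 ± 0.41, edgeR adjusted p = 0.00209). Its groups did not overlap, as its place among the 12 of highest fold required. Nmnat3 and Nmnat1, which make NAD from the product of that kinase, fell by 0.68 ± 0.14 and 0.67 ± 0.19 on the log2 scale, and Bst1, which consumes NAD, rose by 1.12 ± 0.30. Nmnat1 and Bst1 each lost the call in 8 of the 12 fits that left out 1 library.

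The lists of endothelial, mural and disc genes gave 1 call among their members. Of 19 endothelial markers Apln, the ligand of the apelin receptor, fell from 3.30, 3.88 and 5.42 to 0.595, 1.74 and 2.94 normalised CPM, without overlap (log2 fold change -1.16 ± 0.24, edgeR adjusted p = 0.00586), and the list's median was -0.17. Of 14 smooth muscle and pericyte markers and 16 intercalated disc genes 0 were called by edgeR, with medians of -0.11 and -0.10. At an unadjusted p under 0.05 there were 2 in each list, and DESeq2 called 2 and 0. Rgs5, a pericyte gene, lay at medians of 212 and 221 normalised CPM and the desmosomal Dsp at 159 and 194.

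Stress pathways inside the cell each contributed a few higher calls and 0 lower. Over all genes tested 3.74% were called higher and 0.891% lower. The lists share members, so their calls are not separate. Gdf15 is counted in both the p53 and the integrated stress list, and Atf3 in the integrated stress and immediate early lists. Among 21 p53 targets 5 rose, with a median of 0.20: Cdkn1a, the cell cycle inhibitor p21, lay at 28.5, 38.8 and 48.7 normalised CPM against 8.61, 11.5 and 25.1, without overlap (log2 fold change 1.57 ± 0.31, edgeR adjusted p = 0.00481). Eda2r, a member of the TNF receptor family, rose by 1.17 ± 0.23 and Trp53inp1 by 0.83 ± 0.18. Of 23 genes of the integrated stress response 5 rose, with a median of 0.19, and 3 without F/+ library 1 or F/+ library 3. Psat1, an enzyme of serine synthesis, lay at 2.73, 4.36 and 6.95 normalised CPM against 1.07, 1.39 and 1.61 and rose by 1.64 ± 0.22, and Mthfd2, of mitochondrial folate metabolism, by 0.95 ± 0.23. Of 18 genes of NRF2, heme and iron 3 rose, heme oxygenase Hmox1 by 1.89 ± 0.24, the metallothionein Mt2 by 1.62 ± 0.37 and sulfiredoxin Srxn1 by 0.52 ± 0.14. That count was 1 without F/+ library 1 or F/+ library 3, and Srxn1 lost its call in 9 of the 12 fits that left out 1 library.

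Of 21 heat shock genes and chaperones 3 rose, Hspa1b by 2.61 ± 0.40, Hspa1a by 1.59 ± 0.39 and Hsp90aa1 by 0.76 ± 0.21 on the log2 scale. Hspa1a and Hspa1b are near-identical copies, so their counts may be shared. The count was 1 without F/+ library 1 or F/+ library 3, and Hsp90aa1 lost its call in 9 of the 12 fits that left out 1 library. Of 20 immediate early genes 4 rose, with 19 of 20 above 0 and a median of 0.69, among them Maff at 0.87 ± 0.20, Fosl2 at 0.82 ± 0.22 and Egr2 at 2.46 ± 0.60, from a median of 0.171 normalised CPM. Egr2 stood at 3.75 in the libraries low in atrial markers and 1.41 in those high in them. The immediate early count was 1 without F/+ library 1 or F/+ library 3, 12 of 19 within the libraries low in atrial markers and 0 within those high in them, with medians of 1.38 and 0.38. That difference was not tested. Ankrd1 was the only call among 19 YAP and TEAD targets, where 3.74% of all genes were called higher. Of 10 ERK feedback genes 0 were called by edgeR, with 4 at an unadjusted p under 0.05 and 1 called by DESeq2. Lysosomal genes gave 4 calls of 24, among them the cathepsin Ctsz at 0.96 ± 0.21 and progranulin Grn at 0.83 ± 0.19, which macrophages also express, and 0 calls without F/+ library 1 or F/+ library 3. Circadian genes, which would report a difference in time of day, gave 0 calls of 17 by edgeR or DESeq2, with 1 at an unadjusted p under 0.05 and a median of -0.03.

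The response varied among F/F hearts. Over the 554 genes called higher, the SD of the log2 level was larger in F/F than in F/+ for 471 (85.0%), against 48.9% of all genes tested. F/F library 5 was the highest of the group for 273 of them and F/F library 1 for 250, while F/F library 4 was the lowest for 274. All 3 of these are male. The median of these genes over the F/+ mean was 1.19 on the log2 scale in F/F library 5, 1.12 in library 1, 0.693 in library 2, 0.633 in library 3, 0.594 in library 6 and 0.439 in library 4. The genes were called on these libraries, so these values describe the spread and test nothing.

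Sex was compared because the groups hold 3 male and 3 female F/F and 2 male and 4 female F/+ hearts. All 646 called genes that were tested in a fit with separate effects had the same sign in both sexes as in the pooled fit. These genes were called on the same libraries, so that count is a description. The median absolute log2 fold change of these genes was 1.33 in males and 0.762 in females. Both F/+ libraries high in atrial markers, 4 and 6, were female, and the male F/+ libraries, 1 and 3, were low in them. Sex and atrial class are thus partly mixed among the controls, and the part of each was not tested. The test of the difference between the sexes called 0 of 13588 genes by edgeR (0%) and 0 by DESeq2, with 540 at an unadjusted p under 0.05 where 679 would be expected. Spp1, for example, had log2 fold changes of 6.54 in males and 3.56 in females, with an adjusted p of 0.981 by edgeR for the difference.

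The arm without cGas, with 4 F/F and 4 F/+ libraries, was fitted together with it. In it 78 genes were called (0.527%), 74 higher (0.5%) and 4 lower (0.027%), and 71 of these were also called with cGas, which is 91% of the calls without cGas and 10.3% of those with it. Of the 686 genes called with cGas, 672 had the same sign without it. The test of the difference between the arms called 0 of 14812 genes by edgeR (0%) and 0 by DESeq2. At an unadjusted p under 0.05 there were 215 genes, where 741 would be expected by chance. The F/+ libraries without cGas were all male, so sex was a term of the fit. Ccl2 rose by 3.40 with cGas and 3.18 without it on the log2 scale, Spp1 by 4.59 and 4.45 and Timp1 by 3.62 and 4.15. The median of the 39 interferon-stimulated genes was 0.62 with cGas and 0.49 without it, and 0 were called without it. A difference that missed the threshold in these libraries does not show that the arms were equal.

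The NEBNext libraries at 2 weeks, which share no library with this comparison, set 5 F/F against 7 Lmna +/+ hearts and called 4562 of 15627 genes (29.2%). Of the 667 genes called here and tested there, 607 were called in the same direction (91%) and 0 in the opposite one, which is 14.6% of the NEBNext calls tested here. Among the 507 genes higher in both, the median log2 fold change was 1.10 here and 1.81 there, and 470 were further from 0 there. Among the 100 lower in both the medians were -0.661 and -0.930. The kit, the read length, the control genotype and the pools all differed between these sets, so the difference in size cannot be told apart from them. Of the 39 interferon-stimulated genes, 36 were called higher there and 0 lower, with a median of 1.2. Of the 17 cytosolic DNA sensing genes, 11 were called higher and 0 lower. Over all genes tested there 16.2% were called higher. Not every gene named above was called there. The heat shock genes Hspa1b, at 0.54 (adjusted p = 0.462 by edgeR), and Hspa1a, at 0.39 (adjusted p = 0.588), were not, and neither were Maff, at 0.44, Fam81a, at -0.49, and Osbpl3, at -0.41.

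**Figure D5:**
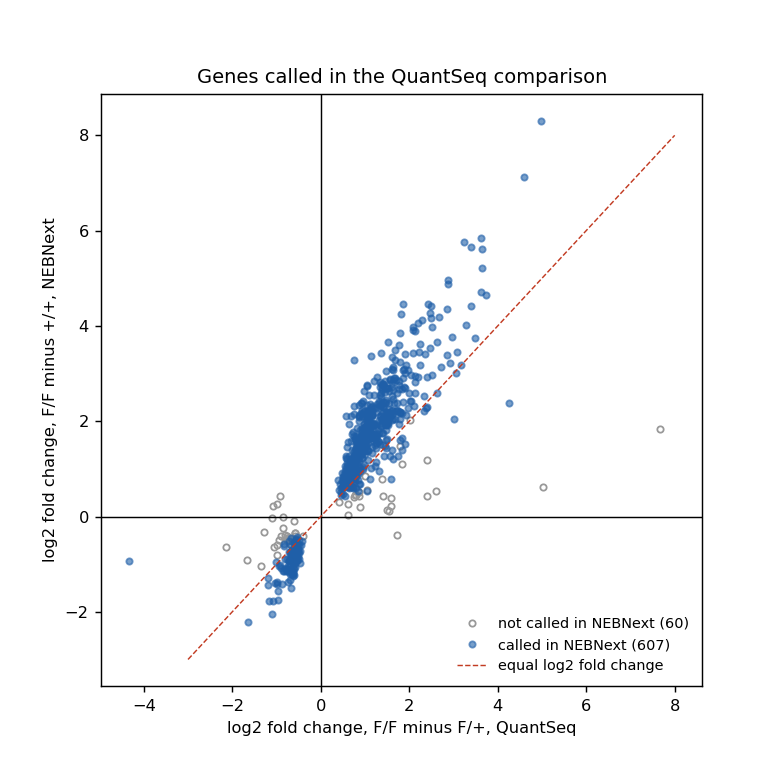
Log2 fold change in the NEBNext libraries at 2 weeks (F/F minus +/+, vertical) against that in the QuantSeq libraries with cGas (F/F minus F/+, horizontal) for the 667 genes called in the latter and tested in both. Blue points are the 607 genes called in both, grey circles the others, and the dashed line marks equal values; most genes that rose lie above it.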

How the data were processed

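RNA of perfused hearts was sequenced with a 3' tag kit (QuantSeq, single reads of 100 cycles, pool KICHMC007). STAR 2.7.9 and build mm39 are named in the submitters' processing notes; for the counting tool, annotation and strand setting, nothing is given in the sources used here. The authors deposited a table of counts per gene, and a second table under the name TPM. In its 20 QuantSeq columns the deposited values equal CPM computed from the counts within 0.01, while in the NEBNext columns, where they are used for nothing here, the deposited values are TPM.

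The counts were tested with edgeR 4.0.16 (R 4.3.3; TMM scaling, genes kept with a minimum count of 10 and a minimum total of 15, quasi-likelihood test, Benjamini-Hochberg adjustment over all genes tested, threshold 0.05). The fit held all 20 QuantSeq libraries, with a mean per group and a term for sex. The NEBNext fit added a term for the pool. The fit for values within the atrial classes held the 12 libraries with cGas, with a mean per genotype and class and no term for sex. Levels are TMM-normalised CPM. Alternatives used DESeq2 1.42.0, limma 3.58.1, other scalings and filters, and fits without single libraries. The tests were tried on simulated data, where DESeq2 called more unchanged genes than edgeR or limma did.

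The members, the 51 gene lists and the rule for named genes were chosen with earlier results of these data known. Named were Lmna and Cgas, the 12 highest and 12 lowest folds among called genes with a mean of at least 5 normalised CPM and groups that do not overlap (predicted genes left out), up to 4 called members per list or the 2 of highest level, and a fixed panel. One of the genes that this rule names is not reported here. The number of counts per library sets the precision, and the counting error is relatively largest for low genes. The split by atrial markers, at 10 normalised CPM of Sln, was added after seeing the data.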

Additional observations from a re-analysis of the deposited data

Results flagged for a closer look

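Within each group of 6 libraries, some values stood far from the other 5 by Dixon's test, which flags about 1 in 20 groups by chance (5%). This held for 20 of the 262 sets of 6 values examined, and 9 of the 20 were the highest value of F/+ library 6, which is among the libraries high in atrial markers. Those 9 were Col1a1 at 137 normalised CPM, Col3a1 at 438, Postn at 38.4, Timp1 at 10.1, Tnc at 1.8, Mmp19 at 2.27, Spp1 at 0.857, Prc1 at 4.54 and Sprr1a at 0.129. F/+ library 4 was highest for Sln at 357 and for Dancr at 2.02. F/+ library 2 was highest for Cdkn1a at 25.1 and Ccl9 at 17.2, and F/+ library 1 for Sting1 at 4.13. Among F/F hearts, library 1 was highest for Kif5b at 337 and Trp53inp1 at 19.0, and library 5 for Grn at 72.8 and Tnfrsf1a at 28.0. F/F library 4 was lowest for Lum at 55.6 and had the most counts, 33990000 when rounded.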

How the results depend on the processing

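The log2 fold change of each of the 686 called genes kept its sign in every alternative in which it was tested. The alternatives reuse the libraries on which these genes were called, so that is a description. The counts moved more. DESeq2 called 1054 genes, with 287 lower. Limma on log2 of the deposited CPM called 26 lower, with 96.3% of its calls higher against 80.8%, and it moved the median of all genes to 0.103. Without a filter on low counts 1183 were called, 929 higher and 254 lower, along with 23 for the difference between the cGas arms and 140 for that between the sexes. Against a fold of 1.5 there were 79 calls, 79 higher and 0 lower. One fit of the 12 libraries with cGas held a mean per genotype and sex. Its contrast within females called 24 genes, all 24 higher and 0 lower, and that within males 595, 454 higher and 141 lower. Leaving out 1 library gave 190 to 1169 calls, 176 to 798 higher and 14 to 371 lower. Chosen after seeing the data, leaving out F/F libraries 1 and 5 gave 119, 115 higher and 4 lower. Leaving out F/+ libraries 4 and 6 gave 1672, 1123 higher and 549 lower. The contrast within the 5 libraries high in atrial markers gave 3, 2 higher and 1 lower. A covariate for atrial markers gave 620, of which 585 were among the 686. The cause of these shifts was not tested. No paired analysis was possible because the replicate numbers follow accession order and the labels tie no F/F library to an F/+ library. What depth limits was not tested.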

Other observations

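Several genes outside the lists, chosen after their values were seen, rose with the macrophage markers. Lcp1, an actin bundler of leukocytes, rose from a median of 11.4 to 29.6 normalised CPM (log2 fold change 1.37 ± 0.20), Spi1, the myeloid transcription factor PU.1, from 2.98 to 5.89 (1.16 ± 0.22), Cd52, a leukocyte surface peptide, from 12.6 to 37.6 (1.62 ± 0.31) and S100a4, a calcium-binding protein of motile cells, from 18.1 to 51.2 (1.63 ± 0.25). Aldh1a2, which makes retinoic acid, rose by 1.80 ± 0.40 on the log2 scale, Cebpd, an acute phase transcription factor, by 1.58 ± 0.31 and Rtn4, a shaper of the endoplasmic reticulum, by 1.20 ± 0.18. Among genes that fell were Txnip, an inhibitor of thioredoxin, from 198 to 80.1 (-0.90 ± 0.24), Car14, a membrane carbonic anhydrase, from 80.7 to 46.0 (-0.86 ± 0.20), Mhrt, a noncoding RNA antisense to Myh7 whose reads cannot be told apart from those of Myh7 without strand, from 31.9 to 18.0 (-0.69 ± 0.19), Agtr1a, an angiotensin receptor, from 7.66 to 5.28 (-0.68 ± 0.15) and Myzap, a protein of the intercalated disc, from 243 to 164 (-0.62 ± 0.16). Of the 12 fits that left out 1 library, Txnip and Mhrt each lost the call in 7 and Myzap in 5. Agtr1a and Aldh1a2 each lost it in 2 and Car14 in 1.

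Host genes of small nucleolar RNAs also leaned higher. The set was formed by gene name outside the lists, and Dancr was chosen after its values were seen, so its counts are a description. Of 17 tested (Snhg genes, Dancr and Gas5), 7 were called higher and 0 lower, where 3.74% of all genes were called higher. All 17 lay above 0 and the median log2 fold change was 0.609. Dancr lay at 2.87, 4.72 and 7.49 normalised CPM in F/F and at 0.923, 1.18 and 2.02 in F/+, without overlap. In the NEBNext libraries 10 of the 17 were called higher and 0 lower, with a median of 0.758. Of all 13657 genes tested in both kits, 2244 were called higher there. The 951 genes in at least 1 list hold 120 of the higher and 11 of the lower calls, so most called genes lie in none of them.

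Ucp1, a gene of brown fat, had 225 counts in F/F, with 215 in 1 library, and 0 in F/+.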
